A study of Saccharomyces cerevisiae with 6 samples.

Results

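The 9 genes described here are ZAP1, which encodes the zinc-responsive transcription activator of budding yeast, and 8 genes of zinc transport or zinc regulation: ZRT1, ZRT2, ZRT3, ZRC1, ZPS1, ADH4, IZH1 and IZH2. They were chosen by name, and all 9 were found among the 5449 genes measured. ZAP1 lies on chromosome X and the other 8 lie on other chromosomes. The RNA came from the haploid laboratory strain BY4741 growing exponentially in YPD, a rich glucose medium. On 3 Affymetrix arrays the strain was labelled BY4741 wt, and on 3 it was labelled BY4741 ypr045c∆, a deletion of the gene that encodes Thp3. All 6 arrays share the strain background and medium, and nothing in the labels tells whether the arrays of a group used separate cultures. The p-values therefore reflect only how much these arrays varied, and that variation may be technical.

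Zap1 is known to bind zinc through zinc fingers and to be active when cellular zinc is low. It then binds zinc-response elements upstream of its targets and raises their transcription, its own gene among them. In cells with ample zinc it is known to be largely inactive. Its targets bring zinc into the cell, move it in or out of the vacuole, or adapt metabolism to a shortage.

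Levels are given as log2(normalized intensity + 16), where the intensities were quantile-normalized over all probe sets. Differences are the deletion-labelled arrays minus the wild-type-labelled arrays, tested with limma. A gene was called when its Benjamini-Hochberg adjusted p over the 5449 genes was under 0.05. The background limit was 6.48, the 95th percentile of the mean levels of 1746 probe sets taken as fission yeast. They were so taken because they matched no gene of the budding yeast gene table, with no other check of species. Each of the 9 genes lay above the limit in both groups, had 1 probe set and had no missing value.

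The labels were checked first. THP3 itself was not lower in the deletion-labelled arrays, at 9.29 ± 0.31 (SD, n = 3) in the wild-type-labelled arrays and 9.62 ± 0.45 in the deletion-labelled arrays (limma adjusted p = 0.39). It was called higher in the latter, against the label, without both arrays numbered 3 (0.41, adjusted p = 0.020), when they formed a batch (adjusted p = 0.015) and with the array number as a replicate block (adjusted p = 0.025); its adjusted p ran up to 0.73 over the alternatives. Where its probes lie relative to the deleted part is not known here. Groups are named by their labels throughout, and every direction below rests on those labels. The 4 MATa genes MFA1, MFA2, STE2 and BAR1 had mean levels between 12.24 and 13.79, and the 3 MATalpha genes between 6.54 and 7.52, nearer the background limit. Of these, MFA1 (0.50, limma adjusted p = 6.5e-04) and the MATalpha gene STE3 (0.45, limma adjusted p = 0.048) were called higher in the deletion-labelled arrays. The others were not called. BY4741 is a MATa strain. Of the 4 marker genes that it is known to lack in whole or part, URA3 and MET17 lay below the limit, while LEU2 and HIS3 lay above it in both groups. LEU2 stood at 8.79 in the wild-type-labelled and 8.52 in the deletion-labelled arrays. A level above the limit therefore does not by itself show that a gene is expressed. Both arrays numbered 3 deviated alike. Their deviations from the group means correlated at r = 0.61 across 5437 genes, and with the other group's arrays 1 and 2 these deviations correlated between -0.42 and -0.30. Within a group the deviations cancel out, so the positive value forces negative ones and these add no support. Wild-type-labelled array 1 also correlated with deletion-labelled array 2 (r = 0.47), and wild-type-labelled array 2 with deletion-labelled array 1 (r = 0.48).

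ZAP1 mRNA was 1.80-fold lower in the deletion-labelled arrays, where 93.4% of the measured chromosome X genes were called lower by limma. Of the 8 listed genes on other chromosomes 0 were called lower. Off chromosome X 5.05% of genes were, so 0 of 8 lies near that share. At an unadjusted limma p under 0.05, 0 of the 8 were lower and 5 higher. The share of all genes at that looser threshold is not given here, so the 5 have no background to be read against. Of those 8, ZPS1 and ADH4 rose and 6 did not pass the test. Over all genes 21.7% were called, 11.6% higher and 10.2% lower, so the 3 calls among 9 genes are read against that background. Off chromosome X 17.3% of 5133 genes were called, 12.3% higher and 5.05% lower, against 2 of 8 listed genes there. From the deposited values 1 of the 9 rose and 1 fell, and with median centring 1 rose and 2 fell. Without both arrays numbered 3 the calls were ZAP1 and ZPS1. With those arrays as a batch term 6 were called, 5 higher and 1 lower, and of all genes that fit called 1573 (28.9%).

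**Figure D1:**
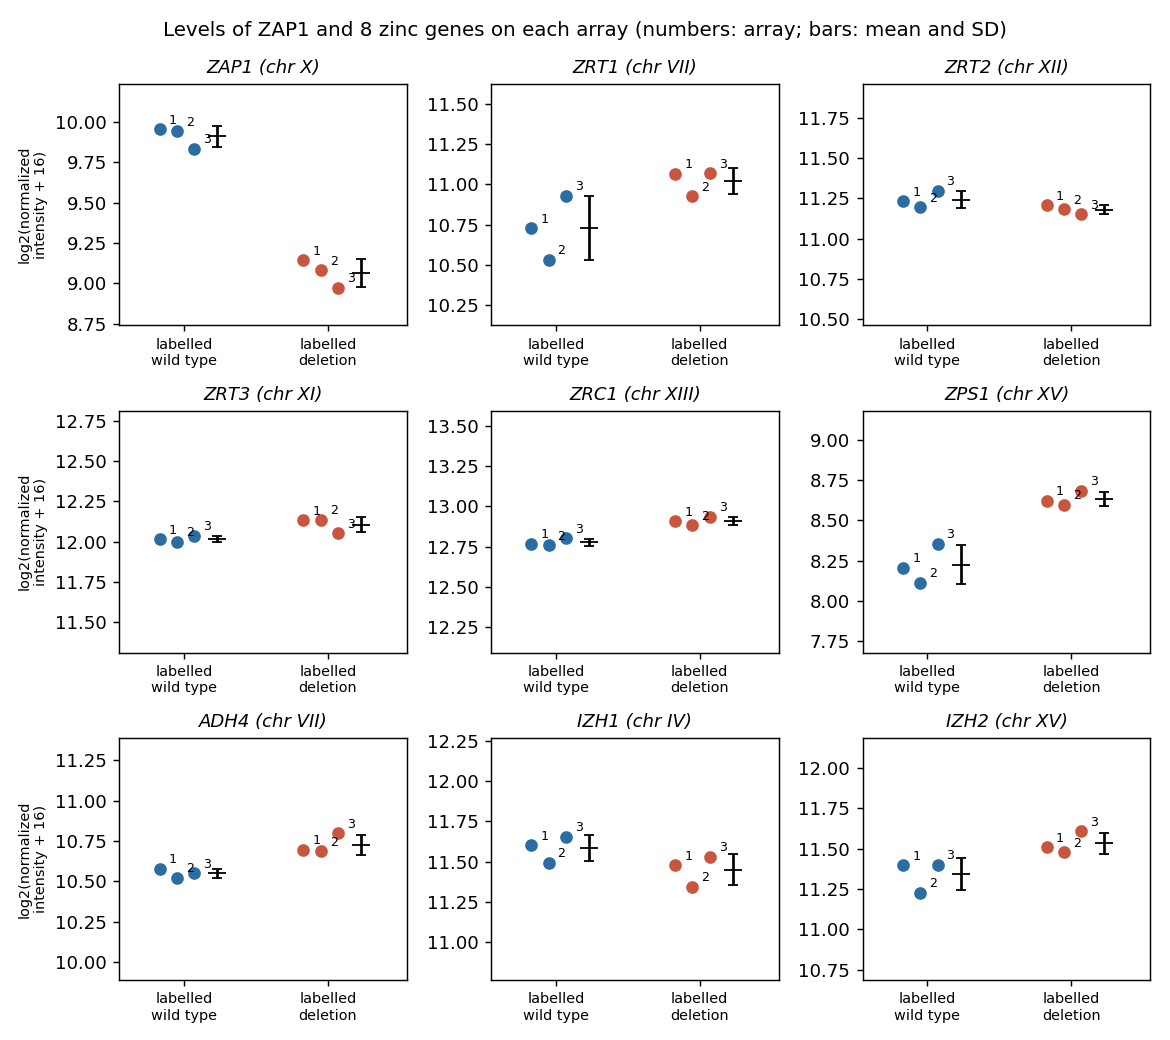
Level of each of the 9 genes on each array, as log2(normalized intensity + 16), with the group on the x axis and the array number beside each point. Crosses with bars give the mean and SD of 3 arrays; every panel spans the same height, so the drop of ZAP1 and the smaller shifts of ZPS1 and ZRT1 can be set side by side.

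ZAP1 (YJL056C) had deposited intensities of 1009.31, 973.21 and 895.71 in the wild-type-labelled arrays. The deletion-labelled arrays gave 543.87, 537.3 and 475.94. The groups did not overlap, and each deletion-labelled array lay well below the lowest of the others. The mean levels were 9.91 ± 0.07 (SD, n = 3) and 9.07 ± 0.09, a difference of -0.85 ± 0.06 (SE, 95% interval -0.99 to -0.70, limma adjusted p = 9.9e-05). An exact permutation test over the 6 arrays gave p = 0.1, the smallest that 3 against 3 can give. Without both arrays numbered 3 the difference was -0.84 (limma adjusted p = 0.0021).

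The fall of ZAP1 was set against its chromosome, because 93.4% of the 316 measured genes of chromosome X were called lower and 0 were called higher (limma; 0 higher at an unadjusted p under 0.05). The other chromosome X genes had a median difference of -0.79. Of them, 117 had a larger fall than ZAP1 and 198 had a smaller fall or a rise. The level of ZAP1 minus the chromosome X median was -1.39, -1.38 and -1.52 in the wild-type-labelled arrays and -1.31, -1.37 and -1.51 in the deletion-labelled arrays. These values overlapped, and the group means differed by 0.03 (exact permutation p = 0.5). With 3 arrays a group this test cannot give a p under 0.1, so it cannot decide whether ZAP1 shifted relative to its chromosome.

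**Figure D2:**
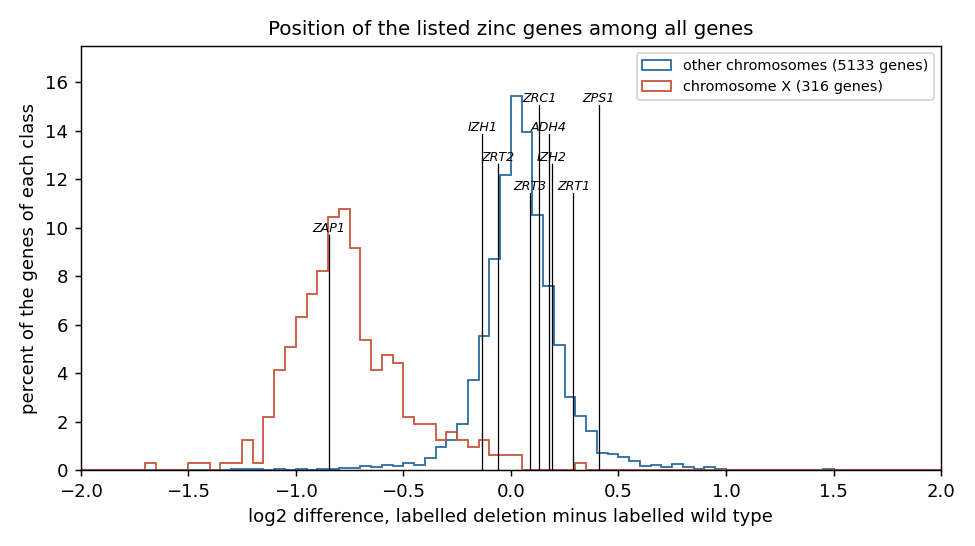
Distribution of the log2 differences (x axis, labelled deletion minus labelled wild type) as a percent of the genes of each class (y axis), for 316 genes on chromosome X and 5133 on other chromosomes. Vertical lines mark the 9 genes; their heights only separate the names. ZAP1 sits within the chromosome X distribution, and the other 8 lie between -0.13 and 0.41. A few genes beyond the axis are not drawn.

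The 10 nearest measured genes, 5 on each side, had differences between -1.08 and -0.08, with a median of -0.87. Of these, 8 fell. IKS1, a putative protein kinase gene next to ZAP1, fell by 0.92 ± 0.06 on the log2 scale (limma adjusted p = 6.2e-05), and TIM54, which encodes a subunit of the mitochondrial inner membrane translocase, fell by 0.87 ± 0.08 (limma adjusted p = 3.2e-04). NUP82, a nuclear pore gene, BNA3, an enzyme gene linked to kynurenine metabolism, YHC3, a vacuolar membrane gene, BIT61, a TORC2 subunit gene, PEP8, a retromer gene, and IRC8 also fell. Not called were TDH1, a glyceraldehyde-3-phosphate dehydrogenase gene with close copies elsewhere (-0.08 ± 0.04), and the dim YJL052C-A (-0.23 ± 0.21). ZAP1 minus the median of the 10 neighbours differed between the groups by 0.05 (exact permutation p = 0.5).

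**Figure D3:**
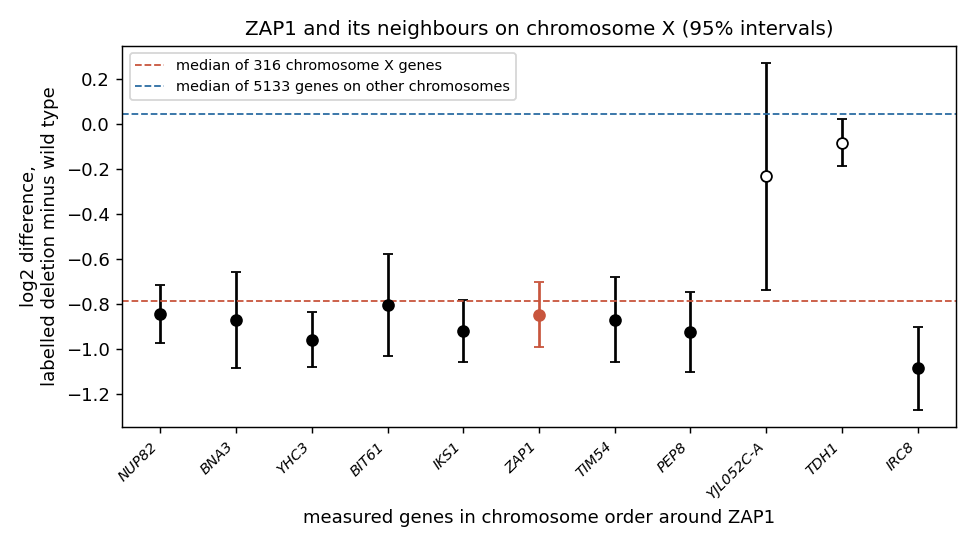
Log2 difference (y axis) of ZAP1, in red, and of the 10 nearest measured genes in chromosome order (x axis, evenly spaced). Bars are 95% intervals and filled points were called. Dashed lines give the medians of chromosome X genes (-0.79) and of genes on other chromosomes (0.04). The points of ZAP1 and 8 neighbours lie below the chromosome X line, with IRC8 lowest at -1.08, and TDH1 and YJL052C-A lie above it.

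The genes with profiles most like that of ZAP1 over the 6 arrays were STR2, TOK1 and SPT10. The measure was the root-mean-square distance between mean-centred levels, which was 0.031, 0.040 and 0.042 among the 5436 genes compared. STR2 acts in sulphur amino acid metabolism, TOK1 is a potassium channel and SPT10 activates histone genes. All 3 lie on chromosome X. The distance includes the group difference, and 93.4% of chromosome X genes were called lower by limma, so this adds no separate support.

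Uptake of zinc across the plasma membrane depends on Zrt1, the high-affinity transporter, and Zrt2, the low-affinity one. ZRT1 (YGL255W, chromosome VII) had deposited intensities of 1748.45, 1490.51 and 1931.18 in the wild-type-labelled arrays. In the deletion-labelled arrays they were 2090.88, 1914.84 and 2085.05. The mean was higher in the latter group, but in normalized levels the groups overlapped, at 10.73 ± 0.20 and 11.02 ± 0.08 (SD, n = 3). The difference was 0.29 ± 0.10 (95% interval 0.05 to 0.54) and missed the threshold (limma adjusted p = 0.091). It passed without wild_type replicate 3 (0.39, adjusted p = 0.027) and when arrays numbered 3 formed a batch (adjusted p = 0.043), and over the alternatives its adjusted p ran from 0.027 to 0.33. Among the 5449 genes, 87.7% had a smaller residual spread than ZRT1.

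ZRT2 (YLR130C, chromosome XII), which is known to be repressed by Zap1 when zinc is scarcest, differed by -0.06 ± 0.04 (95% interval -0.17 to 0.04, limma adjusted p = 0.37). Its levels lay between 11.20 and 11.30 in the wild-type-labelled arrays and between 11.15 and 11.21 in the deletion-labelled arrays, and the groups overlapped. This gene was not called under any of its 18 alternatives.

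The vacuole is the main zinc store of yeast. Zrc1 brings zinc into it, and Zrt3 releases it. ZRC1 (YMR243C, chromosome XIII) had levels of 12.77, 12.76 and 12.80 in the wild-type-labelled arrays and 12.91, 12.88 and 12.94 in the deletion-labelled arrays. The groups did not overlap, and the difference was small, at 0.13 ± 0.04 (95% interval 0.04 to 0.23). It missed the threshold (limma adjusted p = 0.055). When only the S. cerevisiae probe sets were quantile-normalized it passed (adjusted p = 0.045), as with a robust intensity trend (adjusted p = 0.020) or the arrays numbered 3 as a batch (adjusted p = 0.034). Its adjusted p ran up to 0.95 over the alternatives.

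ZRT3 (YKL175W, chromosome XI) had deposited intensities of 4241.75, 4086.47 and 4168.29 in the wild-type-labelled arrays. In the deletion-labelled arrays they were 4454.59, 4476.39 and 4216.13. In normalized levels the groups did not overlap, but on the arrays numbered 3 they lay 0.014 apart. The difference of 0.09 ± 0.04 was not called (limma adjusted p = 0.19). With median centring its sign turned (-0.021). Relative to the median of all genes it was 0.06 under that setting and 0.05 under the main normalization.

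ZPS1 encodes a cell-surface protein that is induced in zinc-starved cells, and of the 8 genes it had the largest difference. Its deposited intensities were 281.2, 249.01 and 294.47 in the wild-type-labelled arrays. The deletion-labelled arrays had 377.67, 391.07 and 386.85. All 3 arrays of the second group lay above all 3 of the first. ZPS1 (YOL154W, chromosome XV) rose 1.33-fold, from 8.23 ± 0.12 to 8.63 ± 0.04 (SD, n = 3), a difference of 0.41 ± 0.07 (95% interval 0.25 to 0.57, limma adjusted p = 0.0062). Of all genes, 96.5% had a lower difference. The call held under all 18 alternatives, with differences from 0.35 to 0.47, and without both arrays numbered 3 it was 0.45 (adjusted p = 0.011). The levels of ZPS1 lay near those of LEU2 (8.79 and 8.52), which the strain is known to lack in whole or part.

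ADH4 encodes an alcohol dehydrogenase of a different family from the main fermentation enzymes, known to be made in zinc-limited cells. Its deposited intensities were 1566.52, 1476.57 and 1486.13 in the wild-type-labelled arrays. In the deletion-labelled arrays they were 1623.64, 1615.35 and 1720.36. The groups did not overlap, but the gap between them was small. ADH4 (YGL256W, chromosome VII) rose from 10.55 ± 0.03 to 10.73 ± 0.06 (SD, n = 3), a difference of 0.18 ± 0.05 (95% interval 0.06 to 0.29, limma adjusted p = 0.040). This call was lost under 10 of 18 alternatives. Without any 1 of the 6 arrays the adjusted p lay between 0.072 and 0.10, with the values as deposited it was 0.11, with median centring 0.83, without chromosome X genes 0.14, and without both arrays numbered 3 it was 0.13.

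IZH1 and IZH2 encode membrane proteins of a conserved receptor-like family that affects zinc homeostasis. IZH2 (YOL002C, chromosome XV) stood at 11.40, 11.23 and 11.40 in the wild-type-labelled arrays and at 11.51, 11.48 and 11.61 in the deletion-labelled arrays. The groups did not overlap, and the difference was 0.19 ± 0.06 (95% interval 0.04 to 0.35, limma adjusted p = 0.081). When arrays numbered 3 formed a batch it was called (adjusted p = 0.045), and over the alternatives the adjusted p ran from 0.043 to 0.78. IZH1 (YDR492W, chromosome IV) differed in the opposite direction, by -0.13 ± 0.07 (95% interval -0.29 to 0.03), and the groups overlapped (limma adjusted p = 0.21). It was called lower with median centring (-0.27, adjusted p = 0.047), the lowest adjusted p of its 18 alternatives, which ran up to 0.49.

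The family has 4 members, and the other two differed downward. IZH4, also known as a Zap1 target, had levels of 11.19, 11.19 and 11.23 in the wild-type-labelled arrays and 10.89, 10.58 and 10.78 in the deletion-labelled arrays. The groups did not overlap. IZH4 fell by 0.45 ± 0.08 on the log2 scale (limma adjusted p = 0.0078; 0.073 without both arrays numbered 3). IZH3, described here after its values were seen, had levels of 11.27, 11.07 and 10.78 against 10.77, 10.87 and 10.44. Its groups overlapped, and both arrays numbered 3 were the lowest of their group. The difference was -0.35 ± 0.15 (limma adjusted p = 0.15), and with those arrays as a batch it was called lower (adjusted p = 0.011). It was also called lower with the replicate block (adjusted p = 0.025), and its adjusted p ran up to 0.34 over the alternatives. Median centring gave -0.49 (adjusted p = 2.0e-04), but the standard errors of that fit hardly reflected the spread of each gene, as described below. IZH2 kept a positive difference and IZH1, IZH3 and IZH4 a negative one under each scaling tried.

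Taking the 8 genes off chromosome X side by side, 6 had a positive difference and 2 a negative one. Their median was 0.15, against 0.04 over all genes off chromosome X. In 5 of the 8 the groups did not overlap, all 5 higher in the deletion-labelled arrays. Off chromosome X 37.9% of genes had groups that did not overlap. The 95% intervals of all 8 lay above that of ZAP1, and the lowest bound among them was -0.29, for IZH1. The upper bound of ZAP1 was -0.70, and the 5th percentile of the differences off chromosome X was -0.23. Most genes off chromosome X thus had differences above that bound, so this is nothing particular to the 8. Over the 9 genes the groups did not overlap in 6, where the share over all genes was 41.2%. None of the 9 differed 2-fold, and 1.43% of all genes were both called and at least 2-fold different.

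The other genes that came closest in profile to ZPS1 were RAD33, RPC25 and YDL144C, at distances of 0.028 to 0.036. Those closest to ZRT1 were NEM1, RPC31 and FUS3, at 0.040 to 0.054. For ADH4 the nearest were POM152, HAP1 and INO80, at 0.0095 to 0.020. The nearest profiles of ZRT2 were UFD4, PAN3 and DPL1, and those of ZRT3 were SPG5, PRO2 and PMR1. For ZRC1 they were RPO26, ICP55 and YPT1. Those of IZH1 were POG1, RAD17 and SPP382, and for IZH2 they were MSD1, YML018C and REX4. Of the genes named here INO80, on chromosome VII, and REX4, on chromosome XV, lie on the chromosome of the gene they resemble.

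ADH4 and ZRT1 are adjacent in the gene order of chromosome VII, the ninth and the tenth protein-coding gene from its left end. Next to them stand MNT2 and VEL1, both also known as Zap1 targets and named here after their values were seen. MNT2, a mannosyltransferase gene, differed by 0.13 ± 0.04 (limma adjusted p = 0.064) and its groups did not overlap. With median centring it differed by -0.0098. VEL1 was dim. It stood at 6.46 ± 0.17 (SD, n = 3), just under the background limit, in the wild-type-labelled arrays and at 6.74 ± 0.30 in the deletion-labelled arrays, and was not called (limma adjusted p = 0.25). Of the 4 genes of this run only ADH4 was called.

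A wider list of Zap1 targets, without the 8 genes above, was examined next. It was drawn from general knowledge of zinc-deficiency and Zap1 profiling, and direct binding by Zap1 was not checked. Of 23 listed genes 22 were measured, none on chromosome X, and 21 of them lay above the background limit in both groups. In the deletion-labelled arrays 5 rose and 3 fell, and 14 did not pass, where off chromosome X 12.3% of genes rose and 5.05% fell. Their median difference was 0.02, against 0.04 over all genes off chromosome X. From the deposited values 3 rose and 2 fell, with median centring 2 rose and 3 fell, and without both arrays numbered 3 3 rose and 0 fell.

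**Figure D4:**
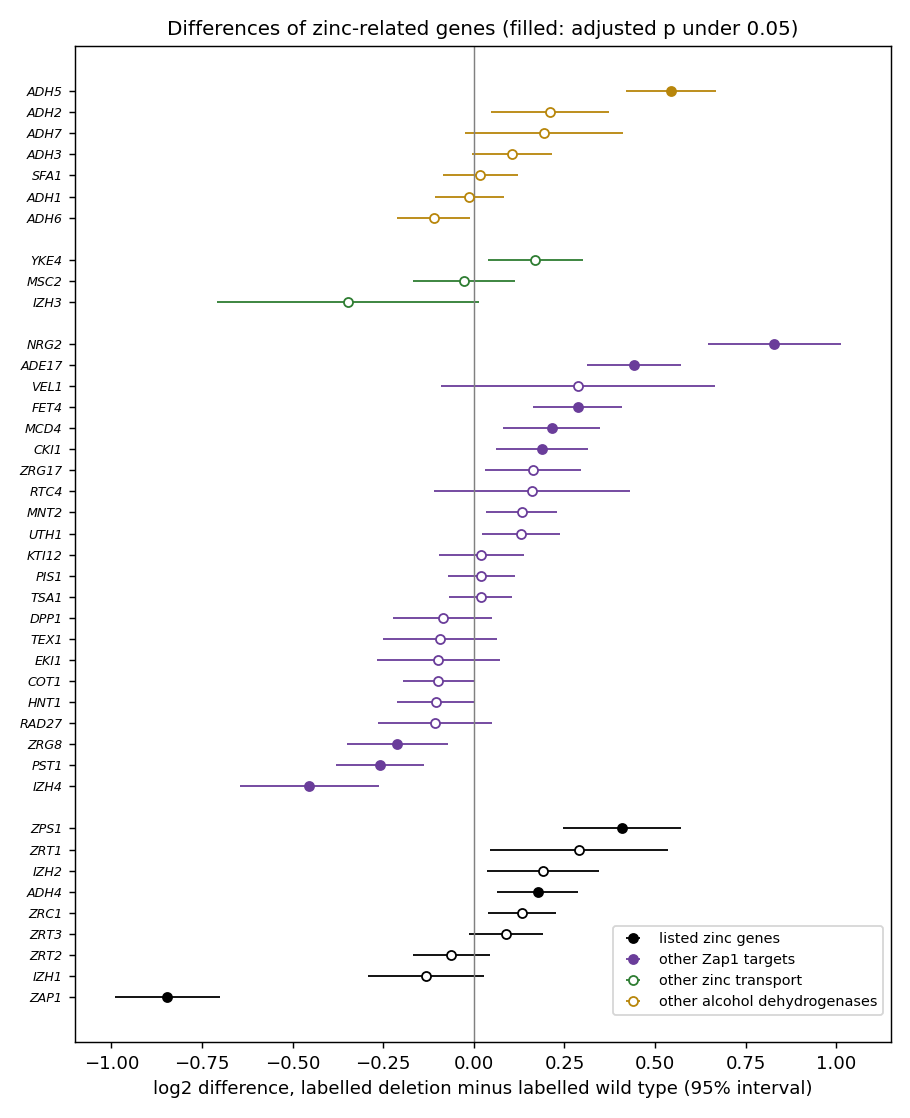
Log2 difference (x axis, labelled deletion minus labelled wild type) of each listed gene (y axis), with 95% intervals; filled points were called. Genes on several lists are drawn once, and PHO84 (6.20) lies beyond the axis and is not drawn. ZAP1, on chromosome X, lies apart at -0.85, while the listed Zap1 targets scatter around 0 between -0.45 and 0.83.

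Among those that rose, NRG2, which encodes a repressor of glucose-repressed genes, had the largest difference. Its deposited intensities were 1112.51, 1004.38 and 940.16 in the wild-type-labelled arrays. In the deletion-labelled arrays they were 1659.94, 1743.36 and 1936.65, all above the first group. NRG2 rose 1.78-fold, to 10.83 ± 0.12 (SD, n = 3; difference 0.83 ± 0.08, limma adjusted p = 3.6e-04). ADE17, an enzyme of purine synthesis, rose by 0.44 ± 0.05 (limma adjusted p = 0.0014). FET4, a low-affinity transporter of iron that also carries zinc, rose by 0.29 ± 0.05 (limma adjusted p = 0.0084). NRG2 and ADE17 were called under all 18 alternatives, and FET4 under all but median centring (adjusted p = 0.24). MCD4, which acts in GPI anchor synthesis, and CKI1, the choline kinase gene, were called at 0.21 and 0.19. Those calls were lost under 10 and 12 of 18 alternatives.

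Besides IZH4, the cell wall protein gene PST1 fell by 0.26 ± 0.05 on the log2 scale (limma adjusted p = 0.012). Without both arrays numbered 3 its adjusted p was 0.082, and without ypr045c_deletion replicate 1 it was 0.051. ZRG8, a zinc-regulated gene, fell by 0.21 ± 0.06 (limma adjusted p = 0.045), and this call was lost under 7 of 18 alternatives, with adjusted p up to 0.20.

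Of 7 further genes of zinc transport and homeostasis, 3 of which are also on the target list, 2 were called higher and 0 lower by limma. Off chromosome X 12.3% and 5.05% of genes were called higher and lower at the same adjusted threshold. The 2 genes were FET4 and PHO84. At an unadjusted limma p under 0.05, for which no share of all genes is given, 4 of the 7 were higher and 1 was lower. Pho84 is the high-affinity phosphate transporter and is also known to carry zinc when abundant. It stood at 6.77 ± 0.26 in the wild-type-labelled arrays and 12.97 ± 0.01 in the deletion-labelled arrays (SD, n = 3), a difference of 6.20 ± 0.12 (limma adjusted p = 2.3e-06). With the arrays numbered 3 as a batch 5 of the 7 were called, 4 higher and 1 lower, in a fit that called 28.9% of all genes.

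Zap1 is also known to repress ADH1 and ADH3, the zinc-dependent alcohol dehydrogenases, in zinc-limited cells. These genes, named outside the rule for naming, differed by -0.01 ± 0.04 and 0.11 ± 0.05, and neither was called (limma adjusted p = 0.86 and 0.15). Of all 8 alcohol dehydrogenase genes, ADH4 and ADH5 were called higher and 0 were called lower by limma, beside the same 12.3% and 5.05%. At an unadjusted limma p under 0.05, again with no share of all genes given, 3 of the 8 were higher and 1 was lower. ADH5 rose 1.46-fold, from 8.80 ± 0.06 to 9.34 ± 0.06 (SD, n = 3; difference 0.54 ± 0.05, limma adjusted p = 4.1e-04), and was called under all 18 alternatives.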

How the data were processed

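The deposited table holds linear intensities, 1 for each probe set of each array. The steps from probe signal to these values are not given in the sources used here. Per the labels' protocols, biotin-labelled cRNA was hybridised to Affymetrix arrays. The table held 10928 probe sets on 6 arrays and 30 missing values. Summed intensity ran from 17790600 to 18431400 per array, and the number of arrays limits the precision.

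Gene names came from the array platform's annotation, matched by gene identifier to the R64 gene table. This gave 5498 probe sets with 1 S. cerevisiae gene each, for 5449 genes in all; where a gene had several (47 genes), the brightest was taken. No genome sequence, promoter or protein was used, so no coordinates or sequences are given.

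Intensities were quantile-normalized over all probe sets and taken as log2(intensity + 16). On that scale the changes of dim genes are understated. Tests used limma 3.58.1 (lmFit, then eBayes) under R 4.3.3, with no covariate beside the group, and intervals are at 95%. Single values per array used an exact two-sided permutation test. On data simulated for this comparison over 5449 genes, 92% of genes changed by 0.5 and 99% of those changed by 1 were called, and 5.45% of calls were false. The simulation changed only 200 genes, drew the noise of each gene and array independently and did not repeat the normalization. In the arrays far more genes were called and deviations were shared between arrays, so these shares are not error rates of the calls above.

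The members and lists were chosen with earlier results of these data known. Named were the 9 genes, every called gene of the other lists, the 5 measured genes on each side of ZAP1, the 3 nearest profiles per member, and THP3. Alternatives were other scalings, pseudocounts, a filter on dim genes, a robust trend, every probe set, a block for array number, arrays numbered 3 left out or as a batch, no chromosome X genes, and each array left out.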

Additional observations from a re-analysis of the deposited data

How the results depend on the processing

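The fall of ZAP1 was called under all 17 of its alternatives, with differences from -0.96 to -0.79, and the rise of ZPS1 under all 18. Over all genes the 1184 calls (630 higher, 554 lower) became 479 higher and 635 lower with the values as deposited, 258 and 858 with median centring, 352 and 474 without both arrays numbered 3, and 876 and 697 with those arrays as a batch. Without chromosome X genes 718 were called (378 higher, 340 lower). The median-centred fit gave genes of unlike spread similar standard errors, such as 0.095 for ZRT2 and 0.11 for YJL052C-A. Under the main normalization these were 0.045 and 0.21. The p-values with median centring therefore say little about the spread of each single gene. Median centring moved the median difference of all genes from 0.03 to -0.08. Relative to that median ZAP1 stood at -0.88 under both settings, ZPS1 at 0.37 and 0.46, and ADH4 at 0.14 and 0.12. With it ZRT3 (-0.021), MNT2 (-0.0098) and ADH3 (-0.0073) changed sign, as did ADH1 without wild_type replicate 2 (0.0029); none of these was called.

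Of the 9 zinc genes 3 were called, 6 when arrays numbered 3 formed a batch and 1 (of 8) without chromosome X genes. The 8 calls among other Zap1 targets became 5 with the values as deposited, 5 with median centring and 3 without both arrays numbered 3, and 4 to 6 when arrays were left out singly. The 2 calls of zinc transport became 5 with the batch term. Those of alcohol dehydrogenases became 1 with median centring, 1 without both arrays numbered 3, 1 without chromosome X genes and 1 to 2 with single arrays left out. ZAP1 minus the chromosome X median differed by -0.012 to 0.079 with single arrays left out, and its sign turned without wild_type replicate 3 (-0.0072) and without ypr045c_deletion replicate 1 (-0.012).

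The array numbers were not shown to pair the arrays: same-numbered deviations correlated at -0.15, -0.026 and 0.61, and the arrays numbered 1 correlated best with number 2 of the other group. The replicate block gave 1297 calls in all and 5 of the 9 zinc genes, ZRT1 (adjusted p = 0.032) and IZH2 (adjusted p = 0.043) added. The search for zinc-response elements was not run, since no promoter sequences were used here. The causes of these changes were not tested.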

Other observations

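For the 8 zinc genes off chromosome X the lowest and the highest array of each group were compared. In the arrays labelled wild type all 8 were lowest on array 2, and 7 were highest on array 3. These ranks leave out the size of the gaps. Between arrays 1 and 2 of that group ZRC1 stood at 12.77 and 12.76, and ZRT1 at 10.73 and 10.53. The 8 genes are not replicates of an array. Among 5123 genes off chromosome X with values on all 3 arrays, 36.0% were lowest on array 2 and 40.1% highest on array 3. In the arrays labelled deletion 6 of the 8 were lowest on array 2 and 6 were highest on array 3, against 31.7% and 44.7% of 5131 genes. This pattern was noticed after the values were seen and was not tested. The labels do not say in what the numbered arrays differed.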
